A study of Mus musculus with 48 samples.

Results

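Netrin-G and leucine-rich synaptic adhesion genes were examined for m6A, N6-methyladenosine, in the mouse hippocampus. The 9 genes were Ntng1, Ntng2, Lrrc4, Lrrc4b, Lrrc4c, Lrrtm1, Lrrtm2, Lrrtm3 and Lrrtm4, of 22238 protein-coding genes in the mm9 annotation. They were chosen by name as a family of synaptic adhesion genes, with values of these same data already known, among them the peak calls and levels of trained and naive WT and KI mice at 8 months. Every peak lying over one of their gene bodies was taken, and overlapping peaks of different animals were joined into regions. This gave 174 member regions of 81807 in the whole series. Regions are numbered within each gene from the lowest coordinate.

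The hippocampus of HdhQ7/7 mice, called WT, and of HdhQ7/Q111 mice, called KI, was studied. In KI mice the CAG repeat of the mouse huntingtin gene is expanded on 1 allele, and both genotypes were kept on a C57BL/6 background. Mice of each genotype were 5 or 8 months old and were either naive or trained by exploring objects at fixed places in an open field. Each of the 8 conditions held 3 animals, so 24 m6A-IP peak lists, 1 per animal, were compared. The matched input libraries were used by the authors to call peaks and are not analysed here as values. The peak lists held 22601 to 57293 peaks per animal. Of marker genes for the labelled tissue, 4 of 4 for CA1, 3 of 4 for the dentate gyrus and 3 of 3 for CA3 held peaks in at least 1 animal. So did 3 of 4 for the choroid plexus and 5 of 5 for the striatum. Peaks in all 24 animals were held by 3, 3, 1, 1 and 3 of these genes in the same order, so peaks alone do not set the tissue apart. In bulk tissue a change in methylation, in the number of cells that express a transcript and in the amount of transcript per cell cannot be told apart from peak calls.

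Netrin-Gs are GPI-anchored proteins of the axon surface. Netrin-G1, from Ntng1, binds the netrin-G ligand NGL-1, encoded by Lrrc4c, across the synaptic cleft. Netrin-G2, from Ntng2, binds NGL-2, encoded by Lrrc4. NGL-3, encoded by Lrrc4b, binds receptor tyrosine phosphatases of the LAR family instead. The LRRTM proteins are postsynaptic partners of neurexins that help to organise excitatory synapses, and LRRTM4 also binds glypicans. m6A is a reversible mark on RNA that is commonly placed at GGAC and similar sequences and affects how transcripts are spliced, translated and degraded.

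Some member regions lay in coding exons and most in introns, and 5 windows of 100 bases around the summits show both kinds. They are printed 5′ to 3′ on the strand of the gene from the mm9 genome, with each GGAC in capitals. The coding windows of Lrrc4b and Lrrc4c were called in all 24 animals, whereas the 3 intron windows belong to regions whose calls or levels differed between conditions.
Lrrc4b region 11, coding exon, chr7:51717323-51717422 (+): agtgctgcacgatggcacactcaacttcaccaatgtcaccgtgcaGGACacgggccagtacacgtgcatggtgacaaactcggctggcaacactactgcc
Lrrc4c region 64, coding exon, chr2:97470846-97470945 (+): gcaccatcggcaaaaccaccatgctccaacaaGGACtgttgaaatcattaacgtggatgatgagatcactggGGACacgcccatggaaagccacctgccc
Ntng1 region 8, intron, chr3:109794010-109794109 (-): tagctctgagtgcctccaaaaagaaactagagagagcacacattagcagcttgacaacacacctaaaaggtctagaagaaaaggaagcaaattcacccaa
Ntng2 region 7, intron, chr2:29087351-29087450 (-): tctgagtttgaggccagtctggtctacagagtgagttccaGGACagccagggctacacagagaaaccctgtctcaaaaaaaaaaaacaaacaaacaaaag
Lrrc4c region 24, intron, chr2:96527766-96527865 (+): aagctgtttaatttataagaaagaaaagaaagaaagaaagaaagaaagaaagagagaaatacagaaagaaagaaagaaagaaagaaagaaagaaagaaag

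The coding window of Lrrc4c held GGAC at 2 positions and that of Lrrc4b at 1. Among the intron windows, GGAC occurred in that of Ntng2 only. Whether any of these windows lies in a repeated sequence, with copies elsewhere in the genome, was not tested. The window of Lrrc4c region 24 consisted largely of A and G, with gaaa repeated in a row over much of it. Its longest run without C or T was 43 bases.

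All 9 genes held at least 1 region called in all 24 animals. These were 34 of the 174 regions, or 19.5%, and another 40 regions, or 23%, were called in 1 animal. In the whole series the shares were 14.9% and 25.7%. By the place of the summit, 145 member regions were intronic, 12 lay in coding sequence, 7 in a 5′UTR, 3 in a 3′UTR and 1 in another exon, and 6 had the summit outside the annotated gene records. Of the 12 coding regions 9 were called in all 24 animals, and of the 145 intron regions 15 were. Fold enrichment is the IP signal over input at the summit. Its median over regions was 5.10 for those called in all animals and 4.13 for those called in 1 animal. The median length was 1086.5 and 154.5 bp. A region called in more animals joins more peaks, which can only lengthen it, so these lengths do not compare single peaks.

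The 2 netrin-G genes differed in size and peak density. Ntng1 (chr3:109582958-109946929, minus strand, with 2 gene records) held 14 regions, 4 of them called in every animal. Its leading region, region 1 in the 3′UTR (chr3:109584081-109585890), had a fold enrichment of 3.46 at the lowest, 6.50 at the median and 9.74 at the highest. Ntng2 (chr2:29050061-29108525, minus strand) held 12 regions, 3 of them in every animal. Its leading region, region 6 in coding sequence (chr2:29083121-29083955), ranged from 2.56 over a median of 4.19 to 7.88. For both regions the means of the 8 conditions lay close together against the range within them, from 5.10 to 7.18 in Ntng1 and from 3.34 to 5.92 in Ntng2.

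Of the netrin-G ligands and their relative, Lrrc4c was by far the longest gene (chr2:96158326-97471823, plus strand, 1313.5 kb) and held 64 regions, 61 of them intronic. Only 5 of the 64 were called in every animal, among them region 64 over the coding exon (chr2:97469286-97471650). The leading region was intronic, region 15 (chr2:96323129-96323593), with a fold enrichment of 2.46 at the lowest, 9.09 at the median and 22.2 at the highest. Lrrc4 (chr6:28611831-28781747, minus strand) overlaps Snd1 on the other strand, and the peaks carry no strand. It held 5 regions, and region 5 (chr6:28779172-28783859), with its summit upstream of the annotated start, ranged from 2.53 over 4.36 to 8.26. Lrrc4b (chr7:51684388-51718721, plus strand) was the most compact of the 3 and held 11 regions. Its region 1 (chr7:51683347-51684806), with its summit also upstream of the start, ranged from 3.72 over 8.69 to 13.4.

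Among the LRRTM genes the load was again uneven. Lrrtm4 (chr6:79968871-80760137, plus strand) held 54 regions with 12 in every animal, against 4 regions in Lrrtm1 (chr6:77192683-77207785, plus strand), 2 in Lrrtm2 (chr18:35368665-35374678, minus strand) and 8 in Lrrtm3 (chr10:63391220-63553025, minus strand). The last 3 lie over Ctnna2, Ctnna1 and Ctnna3 on the other strand, genes of α-catenins that link cadherins to actin, so their peaks could belong to either gene. Lrrtm1 region 4 (chr6:77207152-77208085), in an exon of a noncoding transcript, had a fold enrichment of 3.41 at the lowest, 6.74 at the median and 12.97 at the highest. Lrrtm2 region 1 in coding sequence (chr18:35372172-35373999) was the least spread of the 4 leading regions, from 2.99 over 5.17 to 7.14. Lrrtm3 region 1 in coding sequence (chr10:63392508-63393192) ranged from 5.36 over 6.99 to 15.7, and Lrrtm4 region 40 in an intron (chr6:80441106-80443216) from 4.86 over 8.62 to 25.2.

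**Figure D1:**
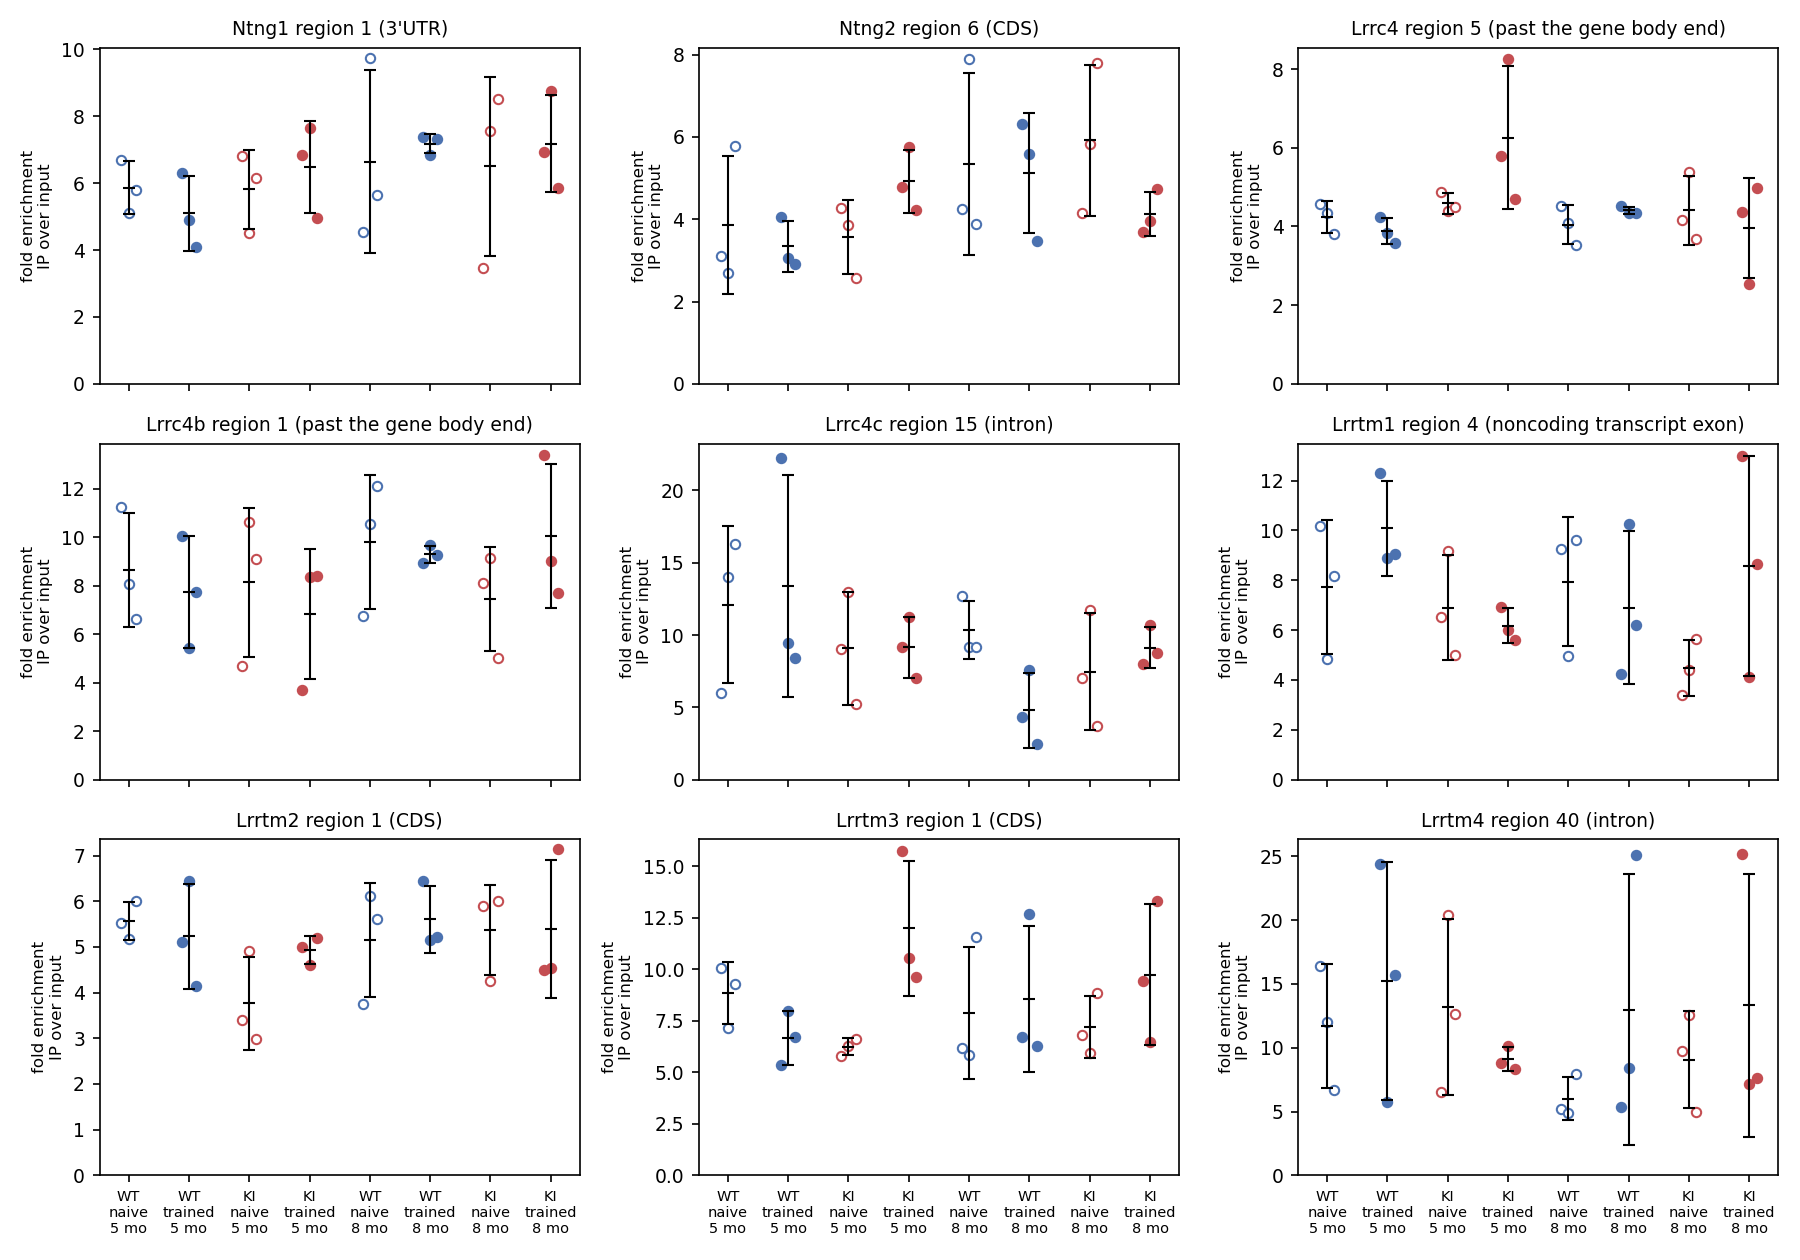
Fold enrichment of IP over input (vertical axis) in each of the 24 animals for the leading region of each of the 9 genes, by condition, with the mean ± SD of 3 animals. Condition means of Lrrc4c region 15 ran from 4.78 to 13.4 and of Lrrtm4 region 40 from 6.004 to 15.3, while animals of 1 condition overlapped those of others in most panels.

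At 8 months, training went with more member peaks in WT mice and fewer in KI mice. WT naive animals had 78, 71 and 70 peaks over the 9 genes, and WT trained animals 86, 81 and 101, so that the 2 groups did not overlap. KI naive animals had 107, 84 and 107, and KI trained animals 79, 74 and 66, again without overlap. The means went from 73.0 ± 4.36 to 89.3 ± 10.4 in WT mice (SD, n = 3) and from 99.3 ± 13.3 to 73.0 ± 6.56 in KI mice. At 5 months both genotypes had fewer peaks after training, 84.3 ± 4.62 against 74.3 ± 15.0 in WT mice and 98.7 ± 10.3 against 88.0 ± 7.94 in KI mice, and the groups overlapped.

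The total number of peaks moved with these counts. Trained animals had 0.689 times the naive total in KI mice at 8 months and 1.09 times in WT mice, and 0.971 and 0.795 times at 5 months. Per 10000 peaks of the same animal, member peaks at 8 months changed by +1.27 after training in KI mice and +2.23 in WT mice. Naive and trained animals overlapped on this scale in both genotypes, at 20.5 ± 1.74 and 21.8 ± 2.49 in KI mice and 21.4 ± 4.55 and 23.7 ± 2.22 in WT mice (SD, n = 3). At 5 months the changes were −2.16 in KI mice and +2.66 in WT mice. When the same number of best peaks, 22601, was taken from every animal, the change was −0.667 in KI mice (53.7 against 53.0) and +7.67 in WT mice (55 against 62.7), with the highest naive WT animal level with the lowest trained one at 62. The difference in KI mice was thus present in the count of all peaks and near 0 at equal list length.

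Ntng1 was the member in which both 8-month groups separated. Its peaks numbered 9, 8 and 6 in WT naive mice and 13, 11 and 10 in WT trained mice. In KI mice they numbered 13, 12 and 12 in naive and 11, 7 and 9 in trained animals. Over all genes with a peak, trained animals were above naive ones without overlap in 176 of 12630 genes in WT mice (1.39%), below them in 767 of 13016 genes in KI mice (5.89%), and both held in 18 of 12279 genes (0.147%). With equal list lengths the Ntng1 groups overlapped, at 8, 6 and 6 against 11, 8 and 6 in WT mice and 8, 7 and 9 against 8, 5 and 7 in KI mice.

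Lrrtm4 separated in WT mice only, with 24, 22 and 19 peaks in naive and 29, 26 and 35 in trained animals at 8 months. KI animals overlapped, at 38, 25 and 35 against 23, 27 and 20. With equal list lengths the means of Lrrtm4 were 15.7 and 20.7 in WT mice and 15.0 and 16.7 in KI mice. The difference between genotypes in this response was not tested for either gene.

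**Figure D2:**
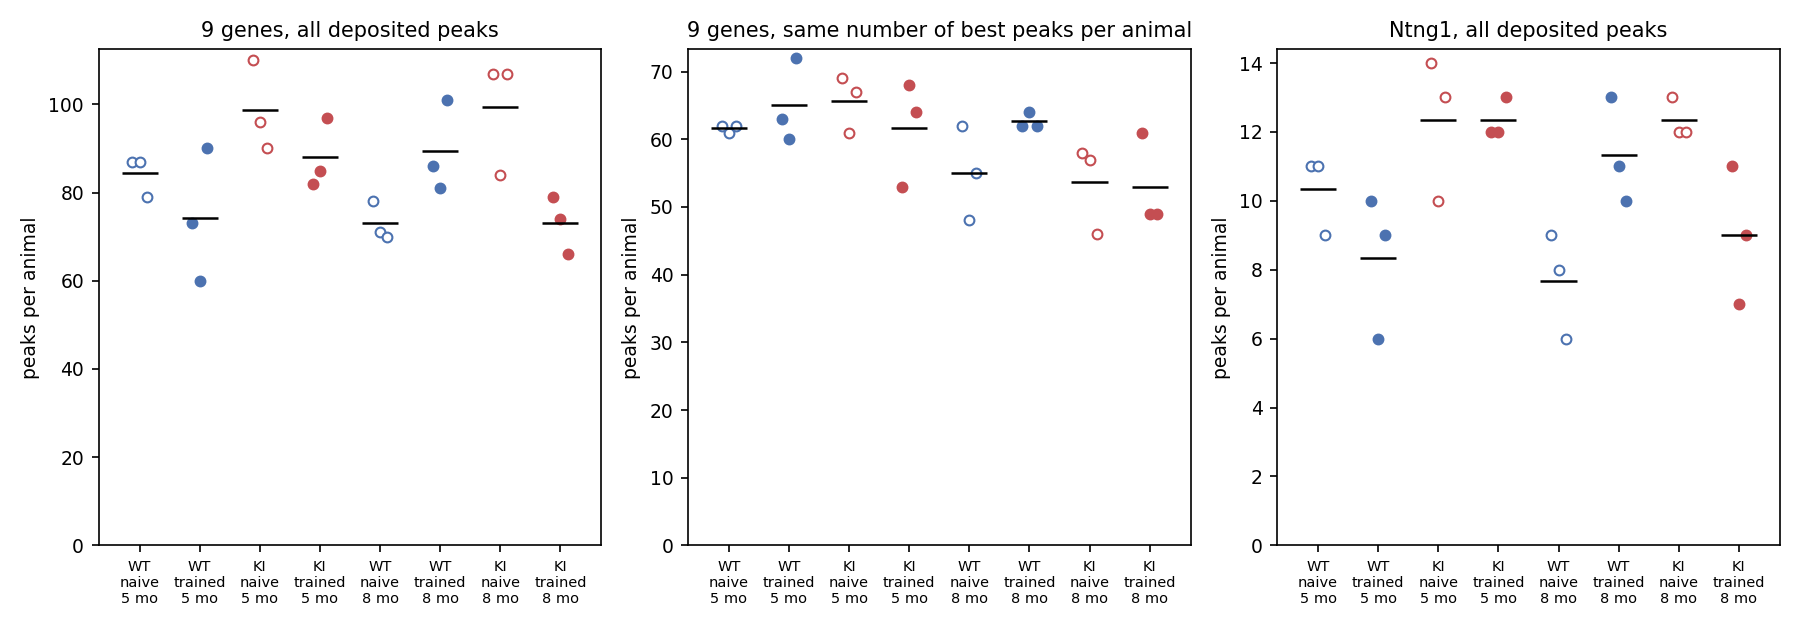
Peaks per animal (vertical axis) by condition over the 9 genes with all peaks, over the 9 genes with the same number of best peaks per animal, and over Ntng1 with all peaks. Points are animals, open for naive and filled for trained, blue for WT and red for KI, and bars are means; at 8 months the naive and trained animals separate in both genotypes in the panels of all peaks, with opposite directions.

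In single regions the calls of the 3 animals of a condition were set against those of another. In the training comparison of WT mice at 8 months, 2 of 119 member regions had a peak in 3 of 3 trained and 0 of 3 naive animals, against 0.557% of all regions with a peak in either group. One was Ntng1 region 8 in an intron (chr3:109793822-109796163), in which several peaks per animal were joined. Its fold enrichment in WT trained animals was 4.06, 6.24 and 6.07, and it held no peak in any WT naive animal of that age. It was called in 3 of 3 KI naive animals, at 7.02, 6.47 and 8.88, and in 2 of 3 KI trained animals. The other was Lrrtm4 region 45 (chr6:80540231-80540476), at 2.57, 3.49 and 2.06 in WT trained animals. It lay in an intron and was called in 1 of 3 KI naive and 0 of 3 KI trained animals.

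In KI mice at 8 months the split regions went the other way, in members and over all regions. Of 133 member regions, 3 had a peak in all naive and in no trained animal, against 1.51% of all regions. The reverse was found in 0 member regions and 0.0404% of all regions. In WT mice of that age, splits towards naive animals were found in 0 member regions and 0.178% of all regions. Ntng2 region 7 (chr2:29087179-29087502) had a fold enrichment of 4.22, 5.08 and 3.72 in KI naive animals, Lrrc4c region 24 (chr2:96527578-96527971) of 3.09, 5.62 and 2.35, and Lrrtm4 region 1 in the 5′UTR (chr6:79968880-79969128) of 4.22, 5.24 and 2.59. Lrrc4c region 24 was also without a peak in all 3 WT naive animals and called in 2 of 3 WT trained ones. At 5 months Ntng2 region 7 was again called in 3 of 3 KI naive animals, at 6.53, 5.63 and 5.98, and in 0 of 3 trained ones. It was the only one of 137 member regions to split that way, against 0.38% of all regions. Both WT training comparisons showed it in 2 of 3 naive and 2 of 3 trained animals. In WT mice at 5 months 1 of 126 member regions was called in all naive and no trained animals, against 1.06% of all regions, which was Lrrc4c region 51 (chr2:97194626-97195060) at 3.47, 6.54 and 4.56 in naive animals.

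Between genotypes, the splits of member regions in naive mice ran towards KI, as did those of all regions. Splits towards WT naive mice were found in 0 member regions at either age. They were found in 0.123% of all regions at 5 months and 0.0384% at 8 months. At 5 months 4 of 145 had a peak in 3 of 3 KI naive and 0 of 3 WT naive animals, against 0.726% of all regions. They were Ntng1 region 5 (chr3:109724682-109725070) at 9.85, 7.42 and 9.97, Ntng1 region 7 (chr3:109790679-109791283) at 4.90, 5.56 and 6.24, Lrrc4b region 5 (chr7:51691935-51692392) and Lrrtm4 region 23 (chr6:80323713-80324193), all in introns. At 8 months 3 of 132 did so, Ntng1 region 8, Lrrc4c region 24 and Ntng2 region 5 (chr2:29076601-29076919), against 1.15%. In trained mice 1 of 118 was called in KI only at 5 months, Lrrtm4 region 14 (chr6:80183131-80183464), against 1.83%. At 8 months 2 of 122 were called in WT trained animals only, Lrrtm4 regions 8 (chr6:80074615-80075118) and 45, against 0.585%. With 1 to 4 member regions a comparison, the shares rest on few regions. At equal list lengths 2 of the 17 splits kept 3 against 0 animals, Ntng1 region 5 in KI against WT naive mice and Ntng2 region 7 in KI mice, both at 5 months. There Ntng1 region 8 no longer differed in number of animals between trained and naive WT mice at 8 months, nor did Ntng2 region 7 between naive and trained KI mice of that age.

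**Figure D3:**
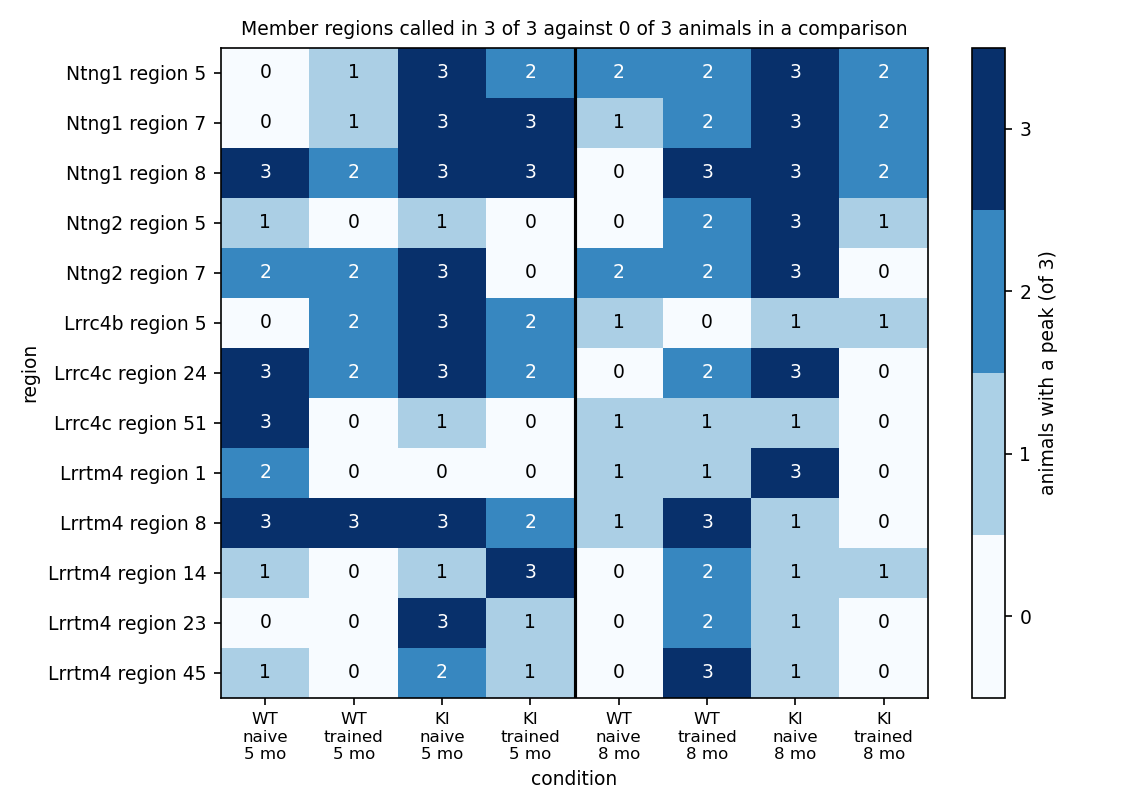
Number of animals with a peak, of 3, in each of the 8 conditions (columns) for the 13 member regions called in 3 of 3 animals of one condition and 0 of 3 of another in a training or genotype comparison (rows). Ntng1 region 8 is at 0 only in WT naive mice of 8 months, and Ntng2 region 7 is at 0 only in the 2 groups of trained KI mice.

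Over all 24 animals, no member region differed in call frequency after adjustment. Fisher's exact test (two-sided) was run on 35110 regions called in 3 to 21 animals, 76 of them in members, with Benjamini-Hochberg adjustment over all. An adjusted p under 0.05 was reached by 0.00285% of regions for genotype and by 0% for training, for age and for training by genotype. The lowest adjusted p of a member was 0.256. Since the genes were chosen with these animals in view, the unadjusted values below are a description.

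For genotype, 1 member region had an unadjusted p under 0.05, against 1.79% of all regions. It was Ntng1 region 7, with a peak in 11 of 12 KI and 4 of 12 WT animals (Fisher's exact test, unadjusted p = 0.0094). For training there were 2, against 1.44%. Lrrc4c region 41 (chr2:96880039-96880685) was called in 8 trained and 2 naive animals, and Ntng2 region 7 in 4 trained and 10 naive ones (both unadjusted p = 0.0361, Fisher's exact test). Training by genotype, scored as trained KI with naive WT against the rest, gave 1, against 0.946%, and it was Ntng2 region 7 once more. With equal list lengths Ntng1 region 7 no longer leaned towards KI, which had 1 animal fewer than WT. Member regions with an unadjusted p under 0.05 then numbered 0 for genotype, 1 for training and 0 for training by genotype, and 0 for each of the 3 with peaks of a −log10 q of at least 5.

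Age gave the most, 8 of 76 member regions, a share close to the 9.8% of all regions. Called more often at 8 months were Lrrc4b region 2 (chr7:51684973-51685472, 9 against 1 animal), Lrrc4b region 4 (chr7:51686960-51687270, 8 against 1), Lrrc4c region 5 (chr2:96234226-96234866, 12 against 7) and Ntng2 regions 2, 3 and 4. The last 3 were neighbours (chr2:29051229-29051496, chr2:29052538-29052874 and chr2:29062986-29063317), with 5 against 0, 7 against 1 and 10 against 3 animals. Called less often at 8 months were Lrrtm4 region 8, with 5 against 11 animals, and Lrrtm4 region 53 (chr6:80748198-80748531), with 4 against 10. With equal list lengths 6 of 53 member regions had an unadjusted p under 0.05 for age, and 7 of 71 with peaks of a −log10 q of at least 5.

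Enrichment levels were compared in the regions called in all 24 animals, which can be given a value in every animal. These were 12187 regions, 34 of them in members. log2 fold enrichment was centred on each animal's median and fitted with limma over all 24 animals. No member passed an adjusted p of 0.05 in any of 10 contrasts, and the lowest adjusted p was 0.790. Among all regions 0.0164% passed for the training response of KI mice at 8 months and 0% in each of the other 9 contrasts. The median difference of the 34 member regions lay between −0.06 and 0.09 on the log2 scale, with all regions within 0.01 of 0.

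Few members fell under an unadjusted p of 0.05. For the training response there were 0 of 34 in WT mice at 5 months (3.22% of all regions), 2 in KI mice at 5 months (3.32%), 1 in WT mice at 8 months (3.88%) and 1 in KI mice at 8 months (5.98%). For training by genotype there were 2 at 5 months (3.2%) and 1 at 8 months (5.54%). KI against WT gave 2 in naive (3.58%) and 2 in trained mice at 5 months (3.62%), and 1 in naive (5.38%) and 1 in trained mice (4.6%) at 8 months.

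The members behind these counts were single regions with opposite signs. Lrrtm3 region 1 had a fold enrichment of 5.81, 6.29 and 6.62 in KI naive mice at 5 months and 9.64, 10.54 and 15.7 in KI trained ones. The centred log2 difference was 0.82 ± 0.32 (SE; limma, unadjusted p = 0.0169, adjusted p = 0.9997), and 1.14 ± 0.45 more than in WT mice. The authors' mean level of this region pointed the other way, at 10.6 in KI naive and 10.2 in KI trained mice of that age. Lrrtm4 region 2 in coding sequence (chr6:79971456-79973355) differed by −0.72 ± 0.33 in the same animals, with 1 naive animal at 7.73 above the other naive and trained ones. Lrrc4c region 15 had 9.16, 9.20 and 12.7 in WT naive mice at 8 months and 2.46, 4.33 and 7.57 in trained ones. The difference was −1.26 ± 0.46 (limma, unadjusted p = 0.0113). In KI mice of that age the groups of Lrrc4c region 15 overlapped, and the training by genotype difference was 1.69 ± 0.65 (limma, unadjusted p = 0.0156, adjusted p = 0.790). Lrrtm1 region 4 differed by 0.81 ± 0.38 between trained and naive KI mice at 8 months, with animals of both groups overlapping.

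The authors' comparison tables list regions at a p of up to 0.05 with the mean level of either group, a log2 normalised read count averaged over animals, so only listed regions can be described. The 8 tables that compare 2 conditions held 175 member rows, and the other 2, which merge the genotypes, held 7 at 5 months and 16 at 8 months and are not described further. Differences below are between the 2 mean levels, without SD or n. In the training table of WT mice at 8 months 19 of 28 member rows were higher after training, against 49.59% of all rows. The genes differed. All rows of Ntng1 (7), Lrrc4c (6) and Lrrtm3 (2) and 4 of 5 of Lrrtm4 were higher. All rows of Ntng2 (3), Lrrc4b (2), Lrrtm1 (2) and Lrrc4 (1) were lower. In KI mice of that age 14 of 18 were lower, with 45.3% of all rows higher. In naive mice of 8 months all 25 member rows were higher in KI than in WT, against 63.83% of all rows, and in trained mice 13 of 26 were, against 58.47%. At 5 months 8 of 16 member rows were higher in KI naive than in WT naive mice, against 32.71% of all rows, and 8 of 14 in trained mice, against 78.73%. The tables share groups, so these directions are not separate observations. At 5 months 21 of 22 member rows were lower after training in WT mice and 21 of 26 in KI mice, with 15.93% and 50.43% of all rows higher.

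Ntng1 accounted for 7 of the rows of WT mice at 8 months, all higher after training, and for 3 of the rows of KI mice, all lower. It was higher in KI than in WT naive mice in 5 of 5 rows, as were all member rows, and lower in trained ones in 5 of 5. In trained mice all rows of Ntng2 (3), Lrrc4 (2) and Lrrc4b (2) were instead higher in KI, and Lrrc4c and Lrrtm4 had rows in both directions. Ntng1 region 1 in the 3′UTR had a high level in either group, at 13.94 in WT naive and 14.14 in WT trained mice. Region 4 in coding sequence (chr3:109675138-109675490) was lower, at 6.66 and 7.21. Ntng1 region 12 in an intron (chr3:109875487-109875881) stood at 5.88 in WT naive and 7.61 in WT trained mice, and at 7.70 in KI naive and 6.64 in KI trained mice.

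A difference beyond 1 was found in 26 of the 175 rows, over 18 regions of 5 genes, all in introns. None of them was a region called in all 24 animals, where the largest difference was 0.65. The median of the higher of both levels was 7.595 in these rows and 10.0 in the other 149. By table, the shares of all rows beyond 1 were 9.14% for training in WT mice at 5 months (2 of 22 member rows), 11.9% in KI mice at 5 months (7 of 26), 8.78% in WT mice at 8 months (7 of 28) and 7.67% in KI mice at 8 months (2 of 18). They were 8.19% for KI against WT in naive (1 of 16) and 7.69% in trained mice at 5 months (2 of 14), and 8.49% in naive (2 of 25) and 8.24% in trained mice at 8 months (3 of 26).

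In WT mice at 8 months 6 member rows were higher by more than 1 in trained than in naive mice and 1 was lower. An interval of Ntng1 region 8 (chr3:109795129-109795468), which does not include the printed window, went from 4.10 to 6.51. Ntng1 region 12 was as above. Lrrc4c region 4 (chr2:96232150-96232877) went from 5.85 to 6.89 and Lrrtm4 region 8 from 6.43 to 8.13. Lrrtm4 region 17 (chr6:80201437-80201829) went from 7.84 to 8.96 and Lrrtm4 region 45 from 5.83 to 7.23. The lower one was Lrrtm4 region 50 (chr6:80634940-80635299), from 6.37 to 4.74. In KI mice of that age Lrrc4c region 24 went from 6.08 to 4.93, beside Ntng1 region 12. Ntng1 and Lrrtm4 held 6 of the 7 WT rows.

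At 5 months the larger differences were mostly towards lower levels in trained mice. In KI mice Ntng2 region 7 went from 7.36 to 5.73, Lrrc4c region 43 (chr2:96948228-96948609) from 8.16 to 6.66, Lrrtm3 region 4 (chr10:63500243-63500707) from 7.01 to 4.85, and Lrrtm4 regions 8, 11 (chr6:80133930-80134596) and 23 from 8.79 to 7.41, 7.75 to 6.45 and 7.58 to 6.52. Lrrc4c region 41 was the exception, at 5.52 in naive and 6.76 in trained KI mice. In WT mice Lrrc4c region 51 went from 5.82 to 1.73 and Lrrc4c region 29 (chr2:96705379-96705798) from 7.32 to 6.31. Ntng2 region 7 in KI mice and Lrrc4c region 51 in WT mice were also the 2 regions called in all naive and no trained animals at this age, and calls and levels come from the same reads.

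Between genotypes the rows beyond 1 were higher in KI for 2 of the 8. Naive KI mice of 8 months had 6.58 in another interval of Ntng1 region 8 (chr3:109793824-109794284) against 5.52 in WT mice, and 7.64 against 5.88 in Ntng1 region 12. Trained KI mice of that age were lower in Ntng1 region 12 (6.59 against 7.61), Lrrtm4 region 8 (6.46 against 8.13) and Lrrtm4 region 49 (chr6:80618583-80619069, 6.78 against 7.92). At 5 months Ntng1 region 10 (chr3:109823074-109823621) was lower in KI naive mice, at 5.31 against 6.83. Lrrc4c region 43 (6.63 against 7.72) and Lrrtm4 region 8 (7.39 against 8.46) were lower in KI trained ones.

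**Figure D4:**
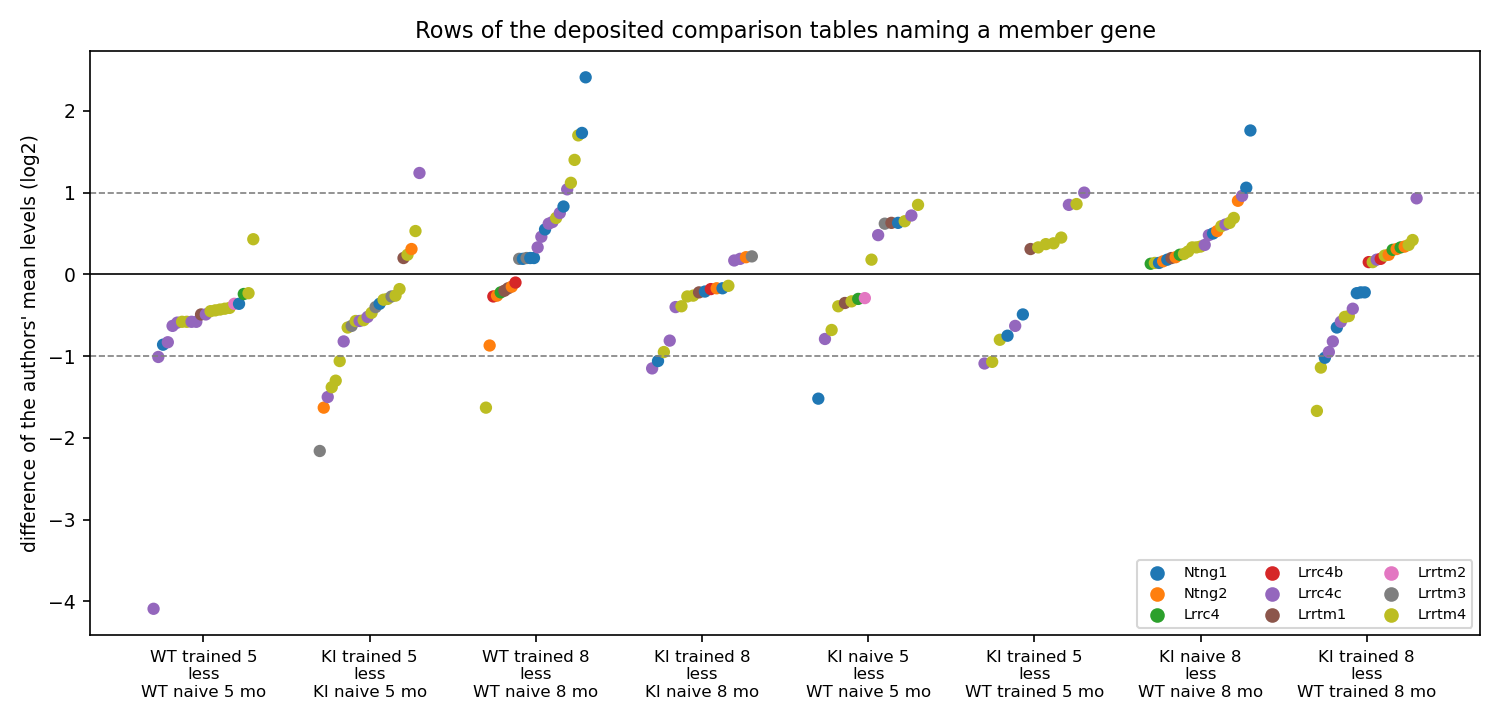
Differences between the authors' mean levels (log2, vertical axis) for the member rows listed in each of the 8 comparison tables (horizontal axis), sorted by value, with dashed lines at −1 and 1. Points are rows, coloured by gene; training in WT mice at 8 months has most rows above 0 and training in KI mice at 8 months most below 0, and all 25 rows of KI against WT in naive mice at 8 months lie above 0.

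In sequence, the member windows resembled other intron windows in GGAC content. GGAC lay in 52 of 174 member windows of 100 bases on the gene strand (29.9%), against 37.0% of 60913 windows of all regions with a summit in 1 protein-coding gene. The 42 of 145 intronic member windows with GGAC (29.0%) compare with 28.3% of all intron windows, and the coding windows had it in 5 of 12 (41.7%). On the other strand the shares were 15.5% in members and 24.9% in all regions. The longer GGACT lay in 9.20% of member windows and 12.5% of all, and every GGACT is also a GGAC. A match is a description of the letters and not a methylated site.

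Long runs of only A and G were common in the introns of some members. This measure was chosen after the windows had been read. A run of at least 20 such bases lay in 37 of 145 intronic member windows (25.5%), against 17.5% of 25181 intron windows of all genes, and in none of the 12 coding windows. In the 15 intronic member regions called in all 24 animals it lay in 7 (46.7%), against 23.8% for such regions of all genes. The genes differed over all their windows. Such runs of A and G lay in 15 of 64 windows of Lrrc4c, 14 of 54 of Lrrtm4 and 5 of 14 of Ntng1. They lay in 2 of 12 windows of Ntng2, 1 of 4 of Lrrtm1 and 1 of 8 of Lrrtm3, and in none of Lrrc4, Lrrc4b and Lrrtm2. Runs of only C and T lay in 4.14% of member and 3.77% of all intron windows. The windows of Lrrc4c region 15, the leading region of that gene, and of Lrrtm4 region 23 were A and G throughout, a run of 100 bases, and Ntng1 region 5 held a run of 68 bases. Of the 24 member regions that split between groups or had a table row beyond 1, 8 held such a run and 5 held GGAC. Their part in the peak calls was not tested.

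**Figure D5:**
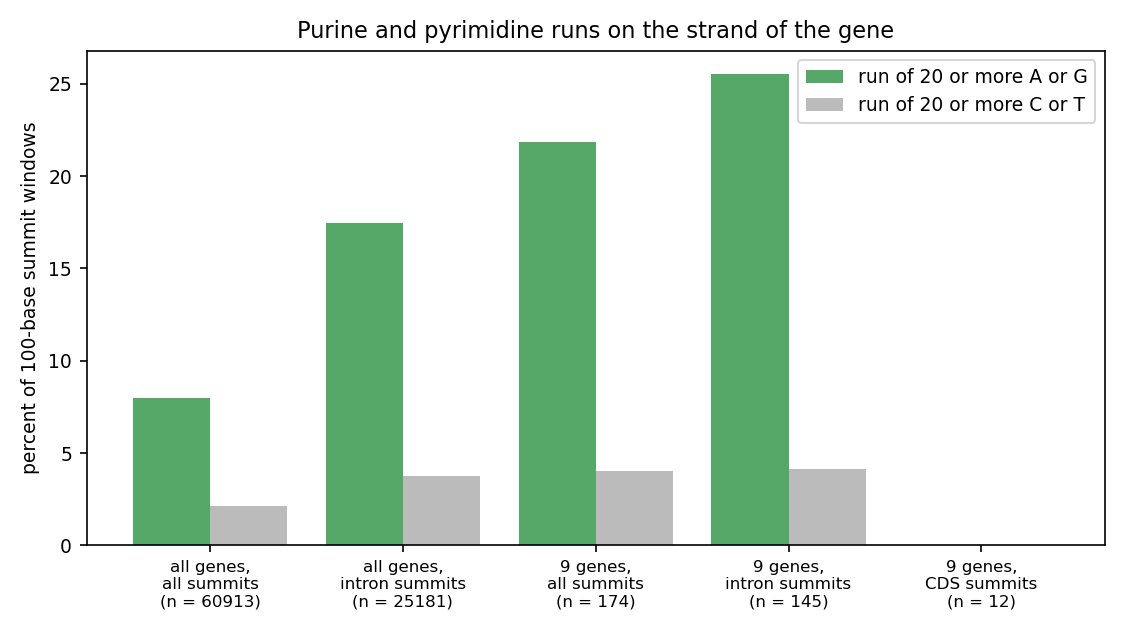
Share of 100-base windows (percent, vertical axis) with a run of at least 20 bases of only A and G, or of only C and T, on the gene strand, for the summits of all genes and of the 9 genes, and for their intron and coding summits. Purine runs are in 25.5% of member intron windows against 17.5% of all intron windows, while pyrimidine runs are at 4.14% and 3.77%.

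Regions of other leucine-rich adhesion genes did not pass the adjusted tests either. These 21 genes, among them the Slitrk, Flrt, Lrfn and Lingo families of neuronal surface proteins, held 176 regions, and each gene had peaks in all 24 animals. Of the 82 regions tested for calls, the unadjusted p was under 0.05 in 3 for genotype, 1 for training, 2 for age and 0 for training by genotype. All 3 for genotype were called more often in KI mice. No region of the list passed the adjusted p in calls or in levels (Fisher's exact test and limma).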

How the data were processed

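RNA from the hippocampus of 24 mice was immunoprecipitated for m6A by the authors and sequenced beside its input (SMARTer Stranded Pico libraries). Per the labels and the study's methods, reads were trimmed with BBDuk and aligned to mm9 with STAR 2.7.3a, reads in repeats were removed, and peaks were called per animal with MACS2 2.2.6. The deposited peak lists give for each peak the fold enrichment (the ratio IP/input at its summit) with −log10 p and q-values. The deposited comparison tables, made by the authors with DiffBind 2.8.0, give mean levels of 2 groups as log2 normalised counts. Their fold change and p-value columns were not used. Peaks carry no strand, and the lists hold no read counts; the files show depth as 22601 to 57293 peaks per animal.

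Peaks overlapping by at least 1 bp were joined into regions and placed by the GENCODE annotation of mm9. Calls were compared with Fisher's exact test (SciPy 1.17.1) and levels with limma 3.58.1 in R 4.3.3, adjusted over all regions (threshold 0.05). Both were tested on simulated data. For calls, the planted regions had a peak in every KI and in no WT animal, so the power to find smaller differences was not measured. The limma p-values set a difference between groups against the spread between animals, estimated over the 8 conditions together. Those of Fisher's exact test rest on counts of animals with a peak, pooled over the other factors. Table columns were assigned to groups after a check of their order between tables that share a group.

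The members and the gene lists were chosen with earlier results of these data known. All 9 members are named, and of their regions the leading one per gene, those split 3 of 3 against 0 of 3, those with an unadjusted p under 0.05 in a Fisher test or in a training or training by genotype contrast of levels, and table rows with levels more than 1 apart. Alternatives were equal numbers of best peaks, −log10 q of at least 3 or 5, a 50 bp overlap, other ranges of animals, no centring, quantile normalisation, the mean of peaks, and each animal left out. A list of binding partners and 2 windows are not reported here.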

Additional observations from a re-analysis of the deposited data

Results flagged for a closer look

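In Ntng1 at 8 months the change in peaks per animal with training was +3.67 in WT and −3.33 in KI mice, so that KI less WT was −7.0, with every trained animal on one side of the naive ones in WT and on the other side in KI mice. Both separations held in 18 of 12279 genes (0.147%), and the one in KI mice alone in 767 of 13016 (5.89%). With 22601 best peaks from each animal the Ntng1 groups overlapped, at 8, 6 and 6 against 11, 8 and 6 in WT mice and 8, 7 and 9 against 8, 5 and 7 in KI mice. Over all 9 genes the changes were +16.3 and −26.3, a difference of −42.7. These differences were not tested. The total of all peaks was 1.09 times the naive one in trained WT mice and 0.689 times in trained KI mice, and with the best peaks the changes over the 9 genes were +7.67 and −0.667.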

How the results depend on the processing

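No paired analysis was possible because replicate numbers are animal numbers and no animal appears in 2 conditions. With the same number of best peaks per animal, the change of member peaks with training was +3.33 instead of −10.0 in WT mice at 5 months and −0.667 instead of −26.3 in KI mice at 8 months, and Ntng1 region 7 was called in 1 KI animal fewer than WT animals (−1). With a −log10 q of at least 5 the change in KI mice at 8 months was −6.33. Leaving out each animal gave changes of −15.2 to −5.0 (KI, 5 months), −34.0 to −22.5 (KI, 8 months), −17.8 to −2.83 (WT, 5 months) and 10.5 to 20.5 (WT, 8 months). The 1 region called by genotype became 0 when regions called in 1 to 23 animals were tested. The 2 regions called by limma for training in KI mice at 8 months became 0 without centring, with quantile normalisation and with regions in 20 or more animals, and ranged from 0 to 2 when single animals were left out. For age, Fisher's exact test called 0 regions with all animals (3440 at an unadjusted p under 0.05) and 0 to 47 when single animals were left out. Without WT trained animal 220 of 8 months it called 47, and it called 9 without 1 WT naive animal of 8 months, 7 without 1 KI naive animal and 1 without 1 KI trained animal of 5 months. At a difference of 0.5 the table rows numbered 79 instead of 26. No member region passed an adjusted p under any alternative. The cause of these shifts was not tested.

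Groups of 3 animals, peak lists of unequal length and the lack of read counts limit these comparisons. A region without a peak is below the authors' calling threshold in that animal, which does not mean that it is unmethylated. Levels were compared only where all animals had a peak.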
